A study of Mus musculus with 21 samples.

Results

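A set of 10 genes of fatty acid uptake, storage, breakdown and synthesis were followed in sort-purified peritoneal B cells of mice: Cd36, Plin2, Plin3, Pnpla2, Lipa, Cpt1a, Acaca, Fasn, Scd1 and Scd2. They were chosen by role, as lipid genes of B cells that are known to rely on fat, and were found by gene symbol among the 56953 gene identifiers counted. All 10 were found and all 10 passed the filter on low counts in each comparison. The lowest count of any of them in any library was 89, for Scd2 in a B-2 library. RNA was sequenced in bulk from C57BL/6 mice that lacked TET2 (TET2-KO) and from wildtype (WT) mice. TET2 is an enzyme that oxidizes methylated cytosine in DNA. The knockout was global, so cells other than B cells also lacked the catalytic region of the enzyme. Of the 21 libraries, 8 were labelled B-1a (4 of each genotype), 7 were labelled B-1b (4 WT, 3 TET2-KO) and 6 were labelled B-2 (2 WT, 4 TET2-KO). The age of the mice is not given in the labels, and no treatment is named there.

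B-1 cells are innate-like B cells of the body cavities. B-1a cells carry CD5, B-1b cells do not, and B-2 cells are the conventional B cells. Fatty acids enter cells in part through the scavenger receptor CD36, are stored as triglyceride in lipid droplets coated by perilipins (Plin2, Plin3), and are set free by lipases (Pnpla2 at the droplet, Lipa in the lysosome). Cpt1a admits them to mitochondria for oxidation. Acaca and Fasn build new fatty acids, and the desaturases Scd1 and Scd2 introduce a double bond. Peritoneal macrophages also express many of these genes, and their surface marker F4/80 is encoded by Adgre1.

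The libraries held between 9667187 and 24152518 counts each (median 17425219). Levels are given as CPM, the counts of a gene scaled to a common library total, after TMM normalisation, which corrects library totals for differences in RNA composition. Counts of the whole Tet2 gene do not show the loss of part of it, and they ranged from 8.45 to 27.2 CPM in WT and from 12.6 to 30.3 CPM in TET2-KO libraries, so they did not check the genotype labels. Between 17816 and 35576 genes had a count, with 17816 to 19255 in the libraries numbered WT 1 and WT 2, B-1b TET2-KO 3 and B-1a TET2-KO 4, and 23913 or more in the rest. The B-2 TET2-KO libraries held 27669 to 35576. Their TMM factors over all libraries were 1.04 to 1.53, against 0.88 to 1.18 in TET2-KO B-1 libraries. Several libraries numbered WT 1 and WT 2 went against their subset labels. Fcer2a, which encodes the B-2 marker CD23, reached 813.8 CPM in the library labelled B-1a WT 1 and 597.2 CPM in that labelled B-1b WT 2, against 24.2 CPM in the library labelled B-2 WT 1. Cd5 was at 18.6 CPM in the library labelled B-1b WT 1 and at 1.64 CPM in that labelled B-1a WT 2. In the TET2-KO libraries Fcer2a lay between 483.5 and 832.5 CPM in B-2 cells and between 4.61 and 42.6 CPM in B-1 cells. No library was moved to another group. Differences of single genes in comparisons with WT libraries are therefore also given without those numbered WT 1 and WT 2, and B-1 cells were compared with B-2 cells in TET2-KO libraries only. Without WT 1 and WT 2, few WT libraries remained: those numbered WT 3 and WT 4 in B-1a and in B-1b cells, and only WT 4 in B-2 cells.

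The region just upstream of the start site is shown for Plin2 and Plin3, the pair of droplet coat genes, of which Plin3 but not Plin2 was called between subsets (whether they differ in this was not tested). The sequences are from RefSeq (GRCm38.p6), in the direction of the gene, for the 250 bases before the start, on the minus strand at chr4:86670060-86670309 for Plin2 and chr17:56290512-56290761 for Plin3. Capitals mark matches on either strand to the CCAAT box (CCAAT) and the GC box (GGGCGG), which may overlap each other.
Plin2: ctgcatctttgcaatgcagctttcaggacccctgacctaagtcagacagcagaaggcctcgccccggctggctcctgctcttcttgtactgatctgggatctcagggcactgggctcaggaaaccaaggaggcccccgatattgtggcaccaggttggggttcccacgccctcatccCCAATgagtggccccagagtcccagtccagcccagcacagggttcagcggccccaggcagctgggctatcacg
Plin3: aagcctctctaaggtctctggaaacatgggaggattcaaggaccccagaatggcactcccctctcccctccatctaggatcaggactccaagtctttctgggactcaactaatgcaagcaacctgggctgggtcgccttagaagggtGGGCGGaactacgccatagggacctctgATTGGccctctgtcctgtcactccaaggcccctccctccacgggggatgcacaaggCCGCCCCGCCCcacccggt
Plin2 held 1 CCAAT match and 0 GC boxes, and Plin3 held 1 CCAAT match and 3 GC boxes. Promoter sequences were matched for 8 of the 10 genes, without Scd1 and Scd2. CCAAT was found in 6 of the 8, against 33.9% of 32851 promoters of this length, and the GC box in 4 of the 8, against 32.7%. The E-box CACGTG was in 0 of the 8 (6.02% of all promoters), and the sterol element, searched as TCACNCCAC, also in 0 (1.05%). A gene was counted if any of its listed promoters matched, whereas the percentages are shares of single promoters. The counts and the percentages are therefore not in like units. A match of this kind is a description of letters and not a binding site.

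Levels between genes were compared per kilobase of exon. Scd1 had the highest level of the 10, with group means from 39.7 to 51.0 CPM per kb. Plin2 (23.0 to 36.1 CPM per kb), Cd36 (22.0 to 34.4), Plin3 (13.9 to 34.5) and Pnpla2 (21.4 to 32.1) came next, and the ranges of these 4 genes overlapped. Lipa lay between 6.50 and 14.0 CPM per kb and Cpt1a between 4.99 and 9.42. Scd2 (2.19 to 5.86) and Fasn (1.78 to 2.64) were lower, again with overlapping ranges. Acaca, the enzyme of the first committed step of fatty acid synthesis, was lowest, with group means from 0.44 to 0.79 CPM per kb.

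**Figure D1:**
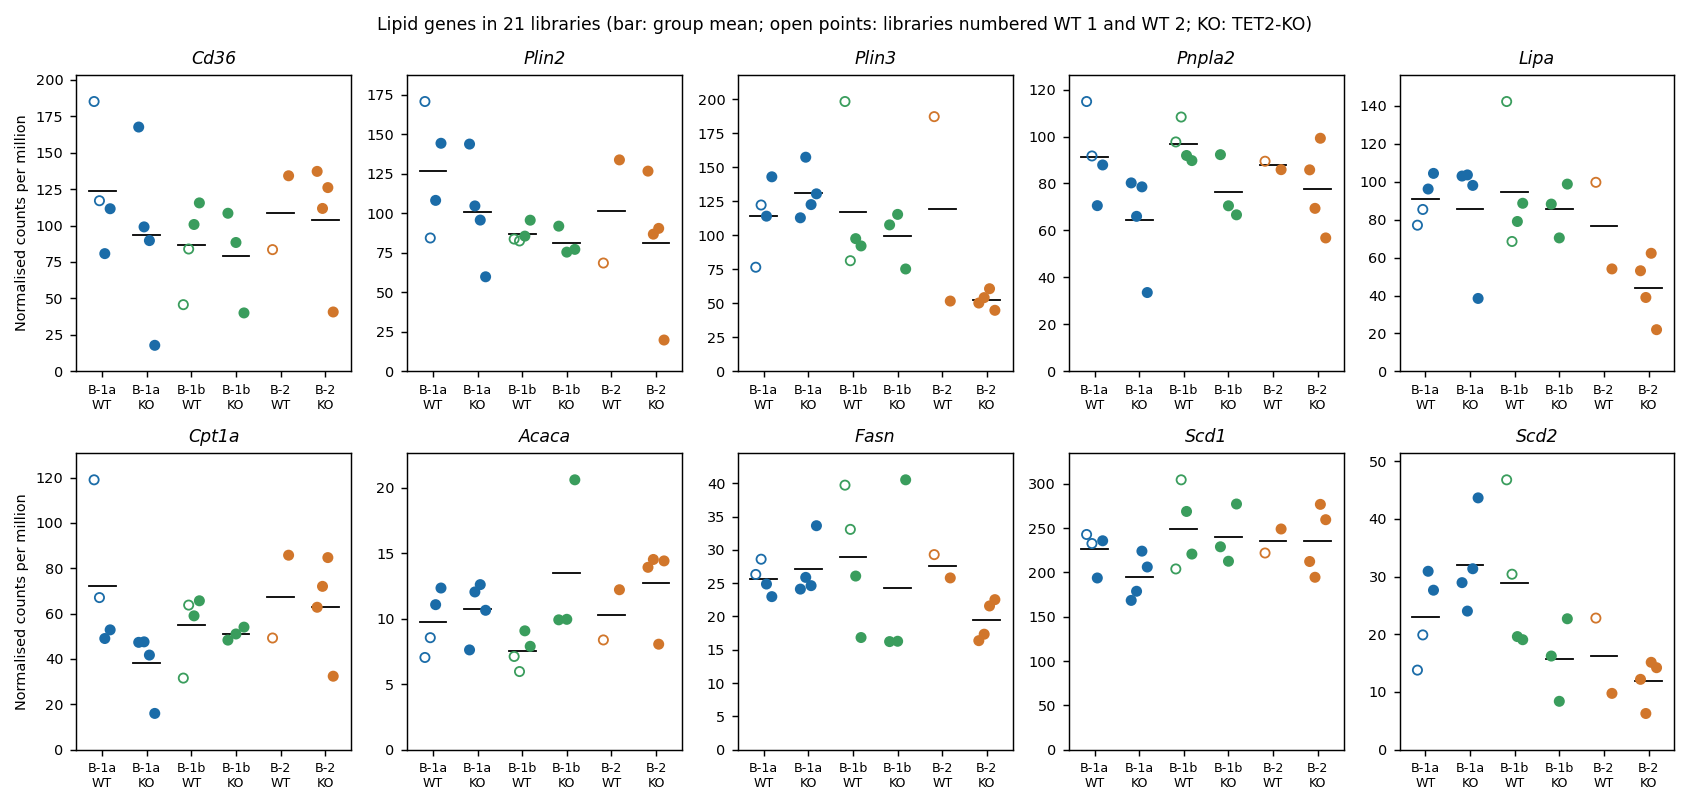
Level of each of the 10 genes in normalised CPM (vertical axis, from 0) by subset and genotype (horizontal axis). Each point is a library, bars are group means, and open points are libraries numbered WT 1 and WT 2; the 4 B-2 TET2-KO libraries lie between 44.9 and 60.7 CPM for Plin3, below all B-1a and B-1b libraries.

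Cd36, which takes up fatty acids and oxidized lipoproteins, varied more between libraries of a group than between groups. In TET2-KO mice it was at 167.5, 99.1, 89.7 and 17.9 CPM in B-1a, at 108.4, 88.4 and 40.1 CPM in B-1b and at 137.1, 111.7, 126.0 and 40.7 CPM in B-2 libraries. In WT mice it was at 185.0, 117.0, 80.7 and 111.5 CPM in B-1a, at 45.7, 83.9, 100.7 and 115.5 CPM in B-1b and at 83.5 and 134.1 CPM in B-2 libraries. The groups overlapped throughout. No difference was called, and that between TET2-KO and WT B-1a cells was -0.37 ± 0.52 (edgeR adjusted p = 0.818) and -0.04 without WT 1 and WT 2.

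Plin2, the perilipin that coats droplets in most cells, was at 143.7, 104.6, 95.7 and 59.8 CPM in TET2-KO and at 170.6, 84.3, 108.1 and 144.2 CPM in WT B-1a cells. In B-1b cells it kept to a narrow range, 75.4 to 91.8 CPM in TET2-KO and 82.5 to 95.6 CPM in WT libraries. In B-2 cells it was at 126.6, 86.8, 90.4 and 19.8 CPM in TET2-KO and at 68.5 and 133.7 CPM in WT libraries. These groups overlapped, and the difference between TET2-KO B-1a and B-2 cells was 0.29 ± 0.41 (edgeR adjusted p = 0.712).

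Plin3 (chr17:56584476-56599873, GRCm39, minus strand), a perilipin that moves between cytosol and lipid droplets, separated B-1 from B-2 cells in TET2-KO mice. Its level was 112.8, 157.3, 122.5 and 130.4 CPM in the 4 B-1a libraries. In B-1b cells it was 107.6, 115.3 and 75.2 CPM. In B-2 cells it was 50.2, 54.2, 60.7 and 44.9 CPM. The B-2 libraries did not overlap with either B-1 subset. Plin3 was 1.28 ± 0.18 (SE) higher in B-1a than in B-2 cells on the log2 scale (edgeR quasi-likelihood adjusted p = 0.000447), and 0.88 ± 0.19 higher in B-1b than in B-2 cells (edgeR adjusted p = 0.0263). Among 18555 genes tested, 5.82% were called in the first comparison (3.26% higher) and 2.15% in the second (1.52% higher). The first count, 1080 genes, was 2015 without B-1b TET2-KO 3, 685 without B-2 TET2-KO 1, 680 without B-1a TET2-KO 2 and 608 without B-2 TET2-KO 2. The second, 399 genes, was 768 without B-1a TET2-KO 4, and 229, 210, 177 and 258 without B-1b TET2-KO 1, B-2 TET2-KO 1, B-2 TET2-KO 2 and B-2 TET2-KO 4. Groups without overlap in the direction of Plin3 were found for 8.90% and 7.99% of genes. The difference between B-1a and B-1b cells was 0.40 ± 0.20 and was not called (edgeR adjusted p = 0.858). The B-1a difference was called in all 19 alternatives, with adjusted p from 9.7e-09 to 0.0233. The B-1b difference was not called in a single fit of all 21 libraries (adjusted p = 0.165), in which 7 of 22597 genes were called, nor without B-1b TET2-KO 1 (0.128), B-1b TET2-KO 2 (0.111), B-2 TET2-KO 1 (0.0911), B-2 TET2-KO 2 (0.0754) or B-2 TET2-KO 4 (0.0654).

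In WT mice, Plin3 was at 76.5, 122.2, 114.0 and 142.9 CPM in B-1a cells. In B-1b cells it was 198.2, 81.3, 97.5 and 92.1 CPM. The pair of B-2 libraries held 187.1 CPM (WT 1) and 51.7 CPM (WT 4). The library labelled B-2 WT 1 lay above all B-1a libraries, and WT 4 lay within the range of the TET2-KO B-2 libraries. The library labelled B-2 WT 1 set the largest genotype difference in Plin3. TET2-KO minus WT was -1.16 ± 0.41 in B-2 cells (edgeR adjusted p = 0.531), and 0.04 without that library, which left B-2 WT 4 as the only WT library. Without the other WT library, B-2 WT 4, it was -1.79 with an adjusted p of 0.0205, in a fit in which the remaining WT library was assumed to vary like the TET2-KO libraries and which called 576 of 24732 genes (2.33%).

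Scd2 (chr19:44282113-44295303, GRCm39, plus strand), a desaturase that makes monounsaturated fatty acids, was the other gene called between subsets. In TET2-KO B-1a cells it was at 29.0, 24.0, 31.4 and 43.6 CPM. In B-1b cells it was at 16.2, 8.38 and 22.7 CPM, and in B-2 cells at 12.2, 6.27, 15.1 and 14.2 CPM. The B-1a libraries were above all B-2 libraries, as for 8.90% of genes, and above all B-1b libraries. Scd2 was 1.38 ± 0.32 higher in B-1a than in B-2 cells (edgeR adjusted p = 0.0168), which was not called without B-2 TET2-KO 1 (0.0567), without B-2 TET2-KO 2 (0.0653) or without both libraries numbered TET2-KO 4 (0.0687). Scd2 was 1.03 ± 0.35 higher in B-1a than in B-1b cells (edgeR adjusted p = 0.683) and 0.35 ± 0.34 higher in B-1b than in B-2 cells (adjusted p = 0.591), neither of which was called. Of all genes, 0.205% were called between B-1a and B-1b cells and 2.98% had B-1a libraries that were all higher than B-1b libraries. Of its exonic bases, 1.12% are shared with the microRNA gene Mir5114 on the same strand. Scd1 and Scd2 are related in sequence, and how the counting split any fragments that fit both is uncertain.

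In WT cells, Scd2 was at 13.8, 19.9, 30.9 and 27.6 CPM in B-1a, at 46.8, 30.4, 19.6 and 19.1 CPM in B-1b, and at 22.8 (WT 1) and 9.76 CPM (WT 4) in B-2 libraries. The libraries numbered WT 1 and WT 2 were the lowest of the B-1a and the highest of the B-1b libraries. B-1a minus B-1b was -0.32 ± 0.34 over all WT libraries (edgeR adjusted p = 1) and 0.60 (adjusted p = 0.0573) without WT 1 and WT 2. Of 13800 genes, 0% were called in the former fit, with 256 at an unadjusted p under 0.05 and 1 called by DESeq2, and 500 genes of 15097 were called in the latter, with 0 of the 10 lipid genes in either. Plin2 had the largest difference in the full WT comparison, 0.54 ± 0.20 higher in B-1a cells (edgeR adjusted p = 1), and 0.48 without WT 1 and WT 2 (adjusted p = 0.102). In the full WT comparison, 14 of 14 macrophage genes were also higher in B-1a cells (median log2 difference 0.61, 0 called). Their part in the Plin2 difference was not tested. Scd1, the relative of Scd2 with the highest level of the 10 genes, ranged over 168.5 to 304.6 CPM in all libraries. In TET2-KO mice, B-1a minus B-2 was -0.31 ± 0.18 for Scd1 (edgeR adjusted p = 0.282), with overlapping groups.

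Lipa, the lysosomal acid lipase, was at 103.0, 103.6, 98.1 and 38.5 CPM in TET2-KO B-1a cells. It was at 88.2, 70.4 and 98.8 CPM in B-1b cells and at 53.1, 39.0, 62.3 and 22.0 CPM in B-2 cells. Only B-1a TET2-KO 4 overlapped with the B-2 libraries. Lipa was 0.93 ± 0.32 higher in B-1a than in B-2 cells (edgeR adjusted p = 0.096) and 0.92 ± 0.34 higher in B-1b than in B-2 cells (adjusted p = 0.167), neither of which was called. With no filter on low counts both were called (adjusted p = 0.00122 and 0.00933), as were 3.8% and 1.94% of 44737 genes. A fit with a block for library number also called both, with 8.83% and 3.59% of 18555 genes. Of 19 alternatives, 4 called the B-1a and 2 the B-1b difference. Without B-1a TET2-KO 4 the B-1a difference was 1.18 and was called (adjusted p = 0.0147). In WT cells Lipa ranged from 77.1 to 104.4 CPM in B-1a, from 68.5 to 142.3 CPM in B-1b and from 54.0 to 99.7 CPM in B-2 libraries. Pnpla2, the lipase of the droplet surface, ranged from 33.6 to 80.3 CPM in TET2-KO B-1a, from 66.7 to 92.3 in B-1b and from 56.8 to 99.3 in B-2 cells. These groups overlapped. In WT cells it ranged from 70.6 to 114.9 CPM in B-1a, from 89.8 to 108.3 in B-1b and from 85.9 to 89.5 in B-2 libraries. TET2-KO minus WT was -0.47 ± 0.26 in B-1a and -0.31 ± 0.15 in B-1b cells (edgeR adjusted p = 0.643 and 0.838). Without WT 1 and WT 2 these values were -0.289 and -0.245.

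Cpt1a, the gate to mitochondrial oxidation, was at 47.3, 47.6, 41.7 and 16.0 CPM in TET2-KO B-1a cells. It was at 119.0, 67.1, 49.0 and 52.8 CPM in WT B-1a cells. Each TET2-KO library was below each WT library, as was so for 3.38% of 13923 genes. TET2-KO minus WT was -0.88 ± 0.37 (edgeR adjusted p = 0.622) and was not called. It was -0.41 (adjusted p = 1) without WT 1 and WT 2. Between subsets in TET2-KO mice, B-1a minus B-2 was -0.75 ± 0.31 for Cpt1a (edgeR adjusted p = 0.158), where B-2 libraries held 62.8, 72.0, 84.7 and 32.4 CPM. These groups overlapped. All B-1a libraries lay below the B-1b libraries (48.3, 51.0 and 54.0 CPM), as for 3.07% of genes, with a difference of -0.41 ± 0.34 (edgeR adjusted p = 0.872). Of 19 alternatives, 3 called the difference from B-2 cells. It was called without both libraries numbered TET2-KO 4 (-0.73, edgeR adjusted p = 0.0137) and with no filter on low counts (adjusted p = 0.0245). It was also called in a fit with a block for library number (adjusted p = 0.00424). These fits called 5.23%, 3.8% and 8.83% of all genes.

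Of the synthesis genes, Acaca was at 9.91, 9.95 and 20.6 CPM in TET2-KO B-1b cells and at 7.12, 5.97, 9.07 and 7.89 CPM in WT B-1b cells. The groups did not overlap, as was so in this direction for 3.74% of 14368 genes. The log2 difference was 0.88 ± 0.33 (edgeR adjusted p = 0.838), and it was not called. It was 0.68 without WT 1 and WT 2, and 0.42 without B-1b TET2-KO 3, the library with 20.6 CPM and the fewest genes with a count. Fasn ranged over 16.2 to 40.5 CPM in the 21 libraries. TET2-KO minus WT was -0.48 ± 0.21 for Fasn in B-2 cells (edgeR adjusted p = 0.531), with 16.4, 17.3, 21.6 and 22.5 CPM against 29.3 and 25.8 CPM. These groups did not overlap, as was so in this direction for 7.24% of 19786 genes, and the difference was -0.39 without WT 1. In TET2-KO B-1a cells it was at 24.1 to 33.6 CPM, above the B-2 libraries as were 8.90% of genes (log2 difference 0.44 ± 0.27, edgeR adjusted p = 0.335).

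No member was called between TET2-KO and WT cells. In B-1a cells 0 of the 10 genes passed, where 0.0503% of 13923 genes did. In B-1b cells 0 of the 10 passed, where 0% of 14368 genes did and 787 had an unadjusted p under 0.05 (60 called by DESeq2). In B-2 cells 0 of the 10 passed, where 0% of 19786 genes did and 1754 had an unadjusted p under 0.05 (169 called by DESeq2). The TET2 effect in B-1a minus that in B-1b cells was also not called for any of the 10, at 0% of 15972 genes, 250 with an unadjusted p under 0.05 and 1 called by DESeq2. The largest interaction was that of Scd2, 1.33 ± 0.51 (edgeR adjusted p = 1), and it was 0.42 without WT 1 and WT 2. An unadjusted p under 0.05 was reached by Cpt1a in B-1a cells, Acaca in B-1b cells, Plin3 and Fasn in B-2 cells and Scd2 in the interaction, and DESeq2 called 0 of the 10 in each. The median log2 difference of the 10 genes was -0.12 in B-1a, -0.11 in B-1b and -0.23 in B-2 cells, beside medians of 0.02, -0.01 and 0.18 over all genes tested. The B-2 medians depended on the setting. They were -0.12 and 0.005 with at least 10 counts in every library, and -0.009 and 0.085 without B-2 TET2-KO 4. With a block for library number they were -0.48 and 0.23.

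**Figure D2:**
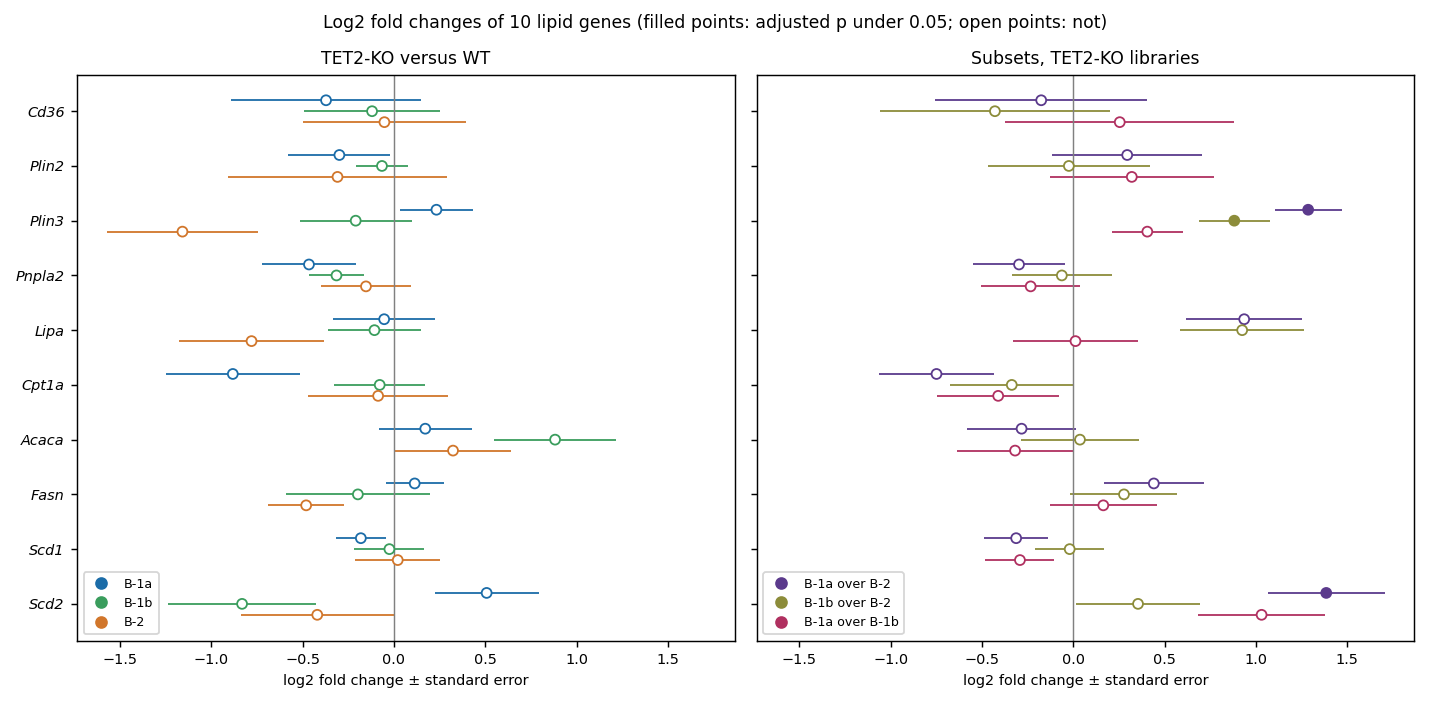
Log2 fold change with its standard error (horizontal axis) for each of the 10 genes (vertical axis), between TET2-KO and WT cells in each subset (left) and between subsets in TET2-KO libraries (right). Filled points passed an adjusted p of 0.05: Plin3 in both B-1 to B-2 comparisons and Scd2 in B-1a over B-2.

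The RNA of macrophages was looked for in each library, since the sort did not include a macrophage marker in its panel. The 14 macrophage genes summed to between 4532 and 31040 CPM, and only Fcgr1 was at 0 in any library (1 of the 21). Most of this sum was a single gene, Lyz2. It made up 3825 of the 4532 CPM in B-2 TET2-KO 4 and 27180 of the 31040 CPM in B-1a WT 1. Adgre1 ranged from 40.9 to 394.3 CPM, a 9.65-fold range. In bulk RNA, a smaller number of macrophages and less RNA per cell cannot be told apart. In TET2-KO mice Adgre1 was 0.46 ± 0.61 higher in B-1a than in B-2 cells (edgeR adjusted p = 0.699) and 0.20 ± 0.66 higher in B-1b than in B-2 cells (adjusted p = 0.900), and its groups overlapped. Of the 14 genes, 13 were higher in B-1a than in B-2 cells (median log2 difference 0.26) and 12 were lower in B-1b than in B-2 cells (median -0.29), with 0 called by edgeR in either. Between B-1a and B-1b cells, 14 of the 14 were higher in B-1a cells in TET2-KO (median 0.50) and in WT libraries (median 0.61), with 0 called. The part of macrophage RNA in the Plin3 difference was not tested. The libraries with the lowest Adgre1 were B-1a TET2-KO 4 (45.6 CPM) and B-2 TET2-KO 4 (40.9 CPM).

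Both libraries numbered TET2-KO 4 were also the lowest of their groups for Cd36 (17.9 and 40.7 CPM), Plin2 (59.8 and 19.8), Pnpla2 (33.6 and 56.8), Lipa (38.5 and 22.0) and Cpt1a (16.0 and 32.4). They were the highest of their groups for Fasn (33.6 and 22.5 CPM). In the same libraries, Plin3 was 130.4 and 44.9 CPM, inside and at the bottom of the range of its group, and Scd2 was 43.6 and 14.2 CPM. Plin3 was called between B-1a and B-2 cells without both of them (1.21, adjusted p = 0.00273).

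Over the 21 libraries, the Pearson correlation with Adgre1 on the log2 scale was 0.88 for Plin2 and 0.83 for Cd36 (Spearman 0.85 and 0.65). It was 0.64 for Cpt1a, 0.63 for Pnpla2 and 0.62 for Lipa, with Spearman values of 0.17, 0.09 and 0.27. It was 0.11 for Plin3, -0.17 for Acaca, -0.19 for Scd2, -0.27 for Fasn and -0.28 for Scd1. The points share subsets and genotypes, and may share mice, so these values are descriptions. The ratio to Adgre1 varied 3.76-fold for Plin2 and 3.92-fold for Cd36 over the libraries, 4.61-fold for Lipa, 15.8-fold for Plin3 and 28.4-fold for Scd2. For Scd1 it varied 14.9-fold, where the level itself varied 1.81-fold. The part of macrophage RNA in the levels of Cd36 and Plin2 was not tested.

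**Figure D3:**
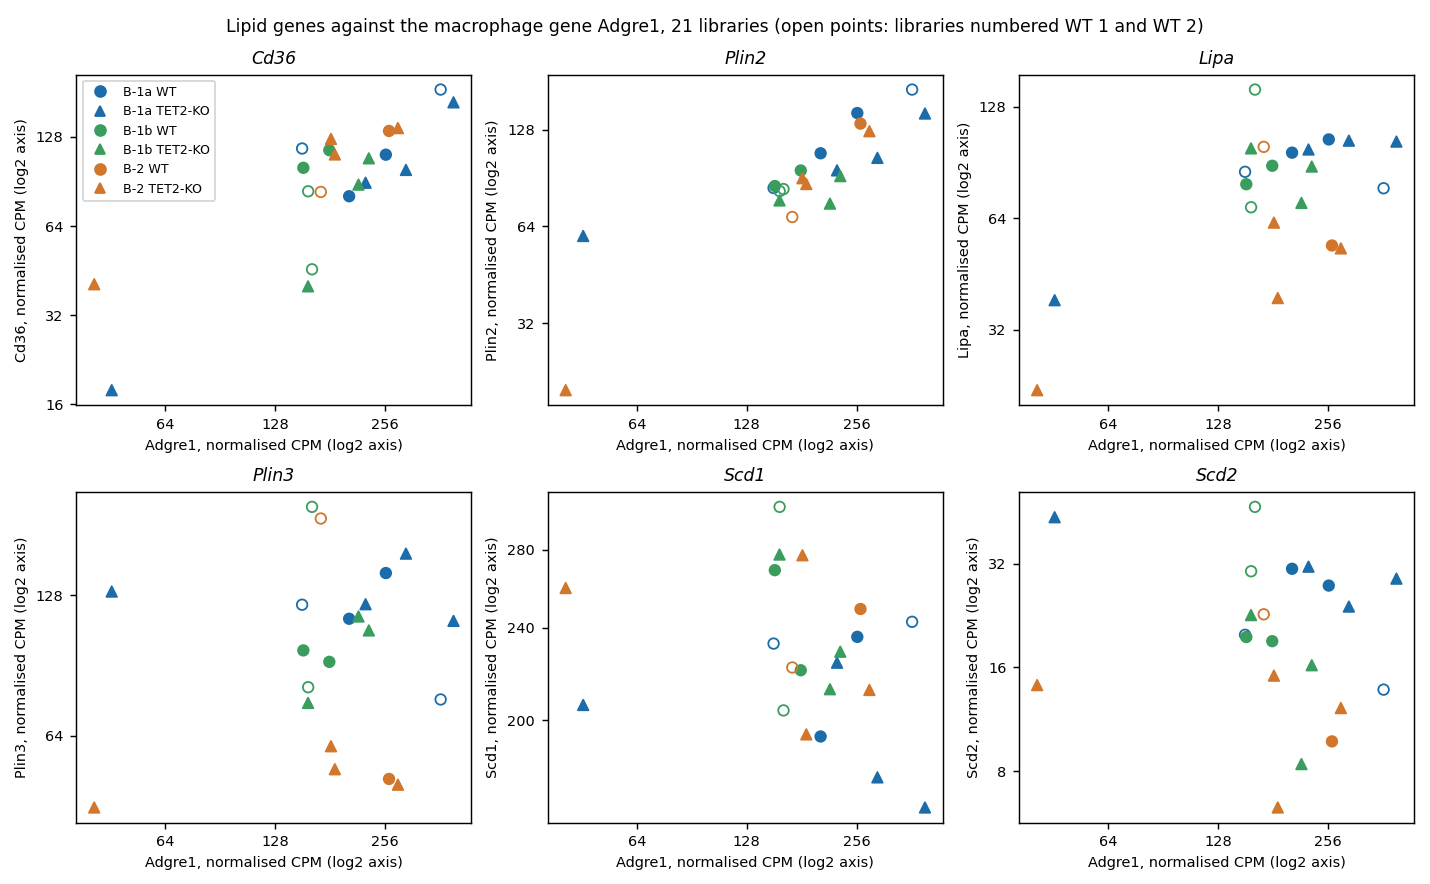
Level of 6 lipid genes (vertical axes) against that of Adgre1 (horizontal axes), in normalised CPM on log2 axes, for 21 libraries. Circles are WT, triangles TET2-KO, and open circles WT 1 and WT 2; the Pearson correlation with Adgre1 was 0.88 for Plin2, 0.83 for Cd36 and 0.11 for Plin3.

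The 6 adipocyte genes summed to at most 12.2 CPM and the 6 mesothelial genes to at most 7.37 CPM, both in B-2 TET2-KO 4, where Acaca was at 14.4 and Scd2 at 14.2 CPM. In the other libraries they reached at most 4.30 and 2.58 CPM, and the adipocyte gene Adipoq was at 0 in 6 libraries and Plin1 in 6. Their part in the levels of the 10 genes was not tested. Erythroid genes summed to between 11.1 and 1702 CPM in B-1a WT and between 1.61 and 30.1 CPM in B-1a TET2-KO libraries, and their part in the genotype differences was not tested. The mast cell genes summed to 293.5 to 1223 CPM over all libraries. T cell genes summed to 16.6 to 108.8 CPM.

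Among 86 further lipid genes, 72 were tested in B-1a against B-2 TET2-KO cells, and 1 was higher and 3 were lower in B-1a cells, where 3.26% and 2.57% of all genes were. Bscl2, the seipin of droplet formation, was 0.69 ± 0.18 higher (edgeR adjusted p = 0.0324), with 91.3 to 108.5 CPM in B-1a and 43.4 to 76.8 CPM in B-2 libraries. Acsl3, which activates fatty acids for droplets, had a difference of -1.61 ± 0.39 (edgeR adjusted p = 0.0227), with 1.93 to 4.09 CPM against 6.63 to 12.02 CPM. The sterol synthesis genes Sqle and Fdft1 had differences of -1.19 ± 0.31 and -0.83 ± 0.23 (edgeR adjusted p = 0.0351 and 0.0442). The groups did not overlap for any of these 4 genes, as for 8.90% of all genes in the higher and 10.1% in the lower direction. Their calls come from the main fit only and were not followed in the alternative fits. In the other 7 comparisons, 0 of the 86 genes were called by edgeR, of which 69 to 73 were tested. Of the 16 oxidation genes tested, 15 had positive differences in B-1a against B-2 and 15 in B-1b against B-2 cells, with 0 called, and the median was 0.23 in both, beside -0.05 and -0.10 over all genes. With at least 10 counts in every library, the all-gene medians of these comparisons were 0.012 and 0.003. RLE factors, another scaling, moved the all-gene median by -0.10 in each. The oxidation genes were not summarised in those alternative fits. Both comparisons share the 4 B-2 TET2-KO libraries, for which 14 of 16 oxidation genes tested had negative differences from WT B-2 cells (median -0.34, beside 0.18 over all genes, 0 called). Against WT B-2 cells, the all-gene median was 0.005 over genes with at least 10 counts in every library. Those WT cells were 2 libraries, of which that labelled B-2 WT 1 went against its label (Fcer2a at 24.2 CPM, against 754 CPM in B-2 WT 4). The oxidation genes were not summarised without that library. Cpt1a itself had differences of -0.75 in B-1a against B-2 and -0.34 in B-1b against B-2 cells. Over the 72 genes the median was 0.17 in B-1a against B-2 cells.

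**Figure D4:**
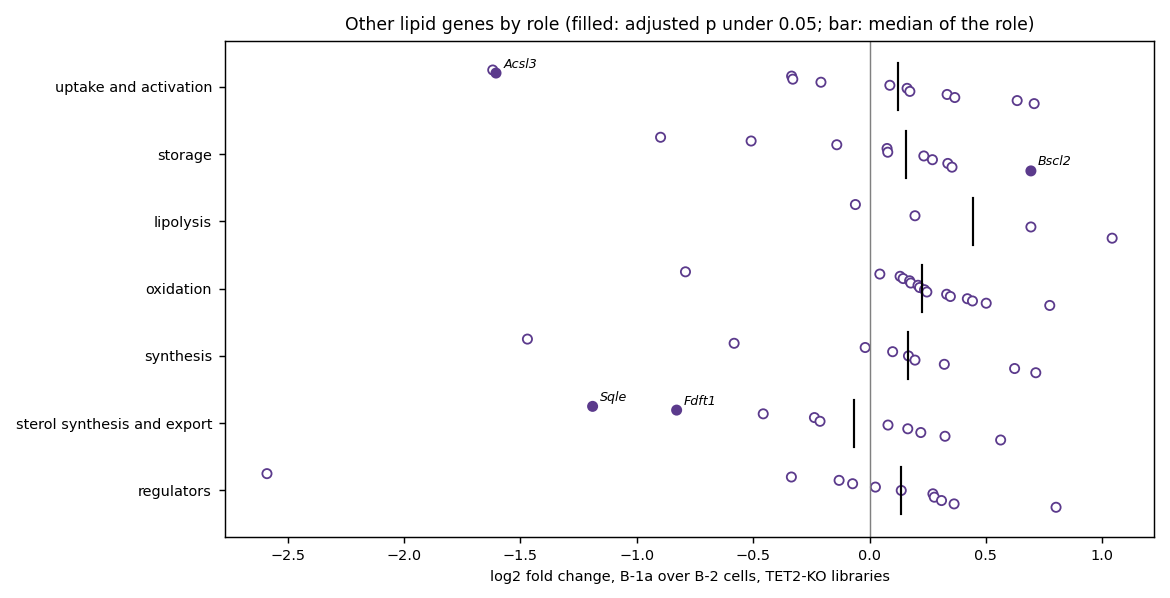
Log2 fold change of B-1a over B-2 cells in TET2-KO libraries (horizontal axis) for the 72 tested lipid genes beside the 10, grouped by role (vertical axis). Bars are medians of a role; the named, filled points are Acsl3, Sqle and Fdft1, lower in B-1a cells, and Bscl2, higher.

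For each of the 10 genes, the genes with the most similar log2 levels over the 21 libraries were found among 22596. Plin3 was closest to Lgals1 (Pearson 0.97), Lsp1 (0.95) and S100a6 (0.95). Plin2 was closest to Ecm1 (0.95), Ctsd (0.94) and St3gal5 (0.94), and Cd36 to Rab3d, Il13ra1 and Ctsa (0.90 each). Scd2 was closest to the B cell kinase gene Blk (0.89), then Trib1 (0.87) and Erp29 (0.86). Lipa was closest to Rtn3 (0.96), Cpt1a to Dck (0.93) and Pnpla2 to Pacc1 (0.96). Scd1 (Pbxip1, 0.78) and Fasn (Ubqln4, 0.82) had the weakest nearest genes, and Acaca was closest to Erlec1 (0.89). Among the 10 genes themselves, Cd36 and Cpt1a were the most alike (0.83), followed by Cpt1a and Pnpla2 (0.75) and Cd36 and Pnpla2 (0.74). Plin3 was most like Lipa (0.72) and Scd2 (0.67).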

How the data were processed

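The authors trimmed reads with fastp, aligned them with STAR to GRCm39 (versions of both not given in the sources used here) and, per the file headers, counted fragments with featureCounts 1.6.1 on GENCODE vM32 without regard to strand. The deposited values are raw counts per gene, without normalization. The paper and the labels describe library preparation differently. Of 56953 identifiers, 56310 received a symbol from GENCODE vM39. Totals ranged from 9667187 to 24152518.

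Genes were tested in R 4.3.3 with edgeR 4.0.16 (TMM, filterByExpr by group, robust quasi-likelihood fits, Benjamini-Hochberg adjustment over all genes tested, threshold 0.05). Each genotype comparison was fitted within a subset, and the TET2-KO subsets together. The SE is the log2 fold change divided by the square root of F. The pipeline was tested on simulated data. Of genes given a log2 change of 1, it recovered 26%, 22% and 2% in B-1a, B-1b and B-2 genotype comparisons, and 18% in B-1a against B-2 cells. For a log2 change of 2 these shares were 67%, 63%, 36% and 58%. Of the calls, 5.1%, 4.49%, 7.32% and 8.43% were false. A gene that was not called may therefore have changed. Alternatives were DESeq2 1.42.0, RLE factors, TMM without immunoglobulin genes, other filters, 1 fit of all libraries, a replicate block and each library left out. All 10 members were named, and further lipid genes where called. Members and lists were chosen with earlier results of these data known. Nothing says that same-numbered libraries share a mouse, and p-values measure the spread between these libraries. Deviations from group means correlated in 8 of 8 same-numbered WT pairs across subsets (0.20 to 0.58), and the block changed no call of a member in WT. In TET2-KO they exceeded 0.1 in 4 of 10 pairs. Promoters were read from RefSeq.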

Additional observations from a re-analysis of the deposited data

Results flagged for a closer look

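Of 44 sets of 4 libraries (a gene in a group) checked for 1 library far from the other 3, 3 were noted, where chance gives about 5%. Plin3 was at 198.2 CPM in the library labelled B-1b WT 1, and the others lay between 81.3 and 97.5 CPM. This library is one of those that went against its subset label. Lipa was at 38.5 CPM in B-1a TET2-KO 4, and the others lay between 98.1 and 103.6 CPM. That library also had the lowest Adgre1 of its group. Acaca was at 8.05 CPM in B-2 TET2-KO 3, and the others lay between 13.9 and 14.5 CPM.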

How the results depend on the processing

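Of 835 alternative values, 772 kept their direction and side of the threshold or moved by less than the spread between replicates. The 835 cover levels, counts of called members, Plin3, Scd2, B-1a against B-2 cells and members with an unadjusted p under 0.1. For the other members, direction changed in 4 of 112 alternative fits in B-1a, 17 of 90 in B-1b and 13 of 84 in B-2 genotype comparisons. It changed in 14 of 184 for the interaction and 19 of 133 in B-1b against B-2 cells. For B-1a against B-1b it was 13 of 152 (TET2-KO) and 8 of 112 (WT), with 0 newly called in any.

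With no filter on low counts, 1 member was called in B-1a cells (Cpt1a), 1 in B-2 cells (Plin3) and 1 in the interaction (Scd2), 4 in B-1a against B-2 and 2 in B-1b against B-2 TET2-KO cells, where 0, 0, 0, 2 and 1 were called. These fits called 318 of 38366, 167 of 43252, 144 of 41707, and 1699 and 870 of 44737 genes. The fit with a replicate block gave 4 and 2 in the last comparisons, adding Lipa and Cpt1a, then Lipa, with 8.83% and 3.59% of 18555 genes called. It changed no other call, and Plin3 in WT B-1a against B-1b cells went to 0.036. Each library was set against the 3 or 4 libraries of another subset of its genotype. The best correlation was with the same number in 12 of 20 cases in TET2-KO and 6 of 12 in WT. The main fits did not pair libraries by number. A single fit of 21 libraries called 0 members in B-1b against B-2 cells.

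Without WT 1 and WT 2, direction reversed for Plin3 in B-1b (0.071) and B-2 cells (0.039), in the interaction (-0.04) and in WT B-1a against B-1b (0.44), and for Scd2 in B-2 cells (0.31) and in WT B-1a against B-1b (0.60). Direction also reversed for Cd36 (-0.17), Cpt1a (-0.29), Lipa (0.26) and Fasn (0.16) in WT B-1a against B-1b, for Acaca (-0.12) in B-1a, for Lipa (0.04) and Fasn (0.20) in B-1b and for Scd1 (-0.07) in B-2 genotype comparisons, and for Cd36 (0.41), Lipa (-0.26) and Fasn (-0.01) in the interaction, none of them called in either fit. The cause was not tested.

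Leaving out each library in turn, members called ranged from 0 to 1 in B-2 genotype, from 1 to 3 in B-1a against B-2 and from 0 to 1 in B-1b against B-2 comparisons. Log2 differences ranged from -0.35 to 0.15 for Plin3 in B-1b genotype, from -1.79 to 0.039 for Plin3 and from -0.89 to 0.31 for Scd2 in B-2 genotype, from -0.66 to 0.17 for Cd36 and from -0.027 to 0.58 for Plin2 in B-1a against B-2, from -0.05 to 0.67 for Scd2 in B-1b against B-2, and from -0.18 to 0.33 for Plin3 and from -0.50 to 0.003 for Scd2 in WT B-1a against B-1b.

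DESeq2 called 3478 genes in B-1a against B-2 (852 higher) where edgeR called 1080 (604 higher), and 2872 (539 higher) in B-1b against B-2 where edgeR called 399 (282 higher). RLE factors called 1114 (543 higher) and 397 (253 higher), and moved the median of all genes by -0.10 in both. DESeq2 called 186 genes in B-1a genotype, against 7. The macrophage range was 9.65-fold by Adgre1 and 6.85-fold by the summed list, most of which was Lyz2.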
